A study of Mus musculus with 8 samples.

Results

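The nuclear genes for the subunits of oxidative phosphorylation were followed across hematopoietic clusters and endothelium of the E11.5 mouse embryo. Members were taken by symbol, as gene names that begin with Nduf and a subunit letter and number, the 4 Sdh genes, the genes that begin with Uqcr, 10 genes of the widely expressed cytochrome c oxidase subunits, and the Atp5 genes. The rule used no measured value and gave 73 of the 24015 genes in the table: 36 of complex I, 4 of complex II, 8 of complex III, 10 of complex IV and 15 of complex V. Ndufa4 was counted with complex I by its name, although its protein is now regarded as a subunit of complex IV. Subunits made in the mitochondrion itself were not analysed here.

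The cells came from the aorta-gonad-mesonephros region with its vitelline and umbilical arteries (AGM+VU), the site where hematopoietic clusters arise on the vessel wall. Clusters were sorted as Ter119- VE-Cadherin+ Kit+ cells and endothelium as Ter119- VE-Cadherin+ Kit- CD41- CD45- cells, from embryos that were wild type or Sl/Sl, the latter with a homozygous deletion that takes in Kitl, the ligand of the Kit receptor. Each of the 4 groups had 2 libraries of 100 cells, each from 1 or more embryos of the same genotype, from 2 sorting experiments whose assignment to libraries is not given in the sources used here. The deletion removes more than Kitl and acts in every cell of the embryo, so that no difference between the genotypes can be placed in one cell type or one gene by these libraries. Beyond the replicate numbers, nothing in the sources used here says which libraries share embryos or a sort, so the p-values measure the spread between these samples, which may be technical.

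Oxidative phosphorylation passes electrons from NADH through complex I and from succinate through complex II to ubiquinone, on through complex III and cytochrome c to complex IV, which reduces oxygen. Complexes I, III and IV pump protons across the inner mitochondrial membrane, and complex V, the ATP synthase, lets them return to drive the making of ATP. Complex V has an F1 head that holds the catalytic sites, a central stalk that turns inside it, a membrane ring of c subunits, and a peripheral stalk that keeps the head from turning. Blood stem cells of the adult bone marrow are known for a low use of oxidative phosphorylation, and endothelial cells for a strong use of glycolysis. Whether either holds for the cells of the E11.5 embryo was not tested here.

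Some known sequence motifs were more frequent in the promoters of these genes than over all genes, though none was in most of them. The 4 windows shown are of members called between the cell types: Cox6a1, Uqcrh and Atp5j higher in endothelium, and Atp5b lower. The windows are from RefSeq on GRCm38.p6 and run from 250 bases before to 50 bases after the start of the transcript, 5′ to 3′ on the strand of the gene. Cox6a1 lies on the minus strand at chr5:115348909-115349208, Uqcrh on the minus strand at chr4:116075021-116075320, Atp5j on the minus strand at chr16:84834927-84835226 (its other window, chr16:84835576-84835875, held none of these motifs) and Atp5b on the plus strand at chr10:128083057-128083356. Capitals mark every match, on either strand, to the core of the NRF1 motif (CGCANGCG), an ETS motif of the kind that GABPA binds (CCGGAAG) and a YY1 motif (AAGATGGC).
Cox6a1: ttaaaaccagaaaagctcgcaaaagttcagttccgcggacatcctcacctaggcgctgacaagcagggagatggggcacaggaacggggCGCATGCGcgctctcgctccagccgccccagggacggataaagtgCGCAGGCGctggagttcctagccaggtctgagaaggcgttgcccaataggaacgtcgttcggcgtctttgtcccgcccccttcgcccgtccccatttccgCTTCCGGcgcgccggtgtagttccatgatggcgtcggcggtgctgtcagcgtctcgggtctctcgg
Uqcrh: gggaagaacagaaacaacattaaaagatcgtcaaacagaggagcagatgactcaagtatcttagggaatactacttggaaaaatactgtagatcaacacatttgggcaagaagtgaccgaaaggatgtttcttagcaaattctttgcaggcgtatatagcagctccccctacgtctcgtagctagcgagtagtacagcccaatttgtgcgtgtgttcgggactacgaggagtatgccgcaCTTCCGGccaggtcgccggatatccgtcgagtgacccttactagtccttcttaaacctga
Atp5j: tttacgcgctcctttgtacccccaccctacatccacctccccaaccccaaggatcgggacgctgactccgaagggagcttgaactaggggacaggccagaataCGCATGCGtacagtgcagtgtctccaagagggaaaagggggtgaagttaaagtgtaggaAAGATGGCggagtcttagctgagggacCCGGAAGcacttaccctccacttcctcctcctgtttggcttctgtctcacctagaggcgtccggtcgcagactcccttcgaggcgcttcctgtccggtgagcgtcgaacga
Atp5b: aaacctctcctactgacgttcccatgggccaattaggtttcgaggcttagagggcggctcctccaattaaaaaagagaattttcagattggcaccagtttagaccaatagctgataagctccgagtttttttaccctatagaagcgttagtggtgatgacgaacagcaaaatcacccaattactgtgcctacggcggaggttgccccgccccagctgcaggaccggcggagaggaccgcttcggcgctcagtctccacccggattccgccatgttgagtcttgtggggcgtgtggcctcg
The Atp5j window shares 247 bases with the window of Gabpa, which runs the other way and encodes a DNA-binding subunit of the ETS factor named above. No letters of the Atp5b window matched any of these motifs, nor did any window shown match the nuclear receptor motif AAGGTCA, and no 2 marked matches overlapped.

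Of the 73 members, 62 had a promoter window in RefSeq, 61 by symbol and Atp5f1 under its newer name. Atp5a1, also called lower in endothelium, had no window, and the window of Ndufa1, also called higher, held none of the motifs named here. The NRF1 core was in the windows of 25 of the 62 members (40.3%), against 9.22% of all 27025 genes with a window of this length. The ETS motif was in 16 members (25.8%) against 9.93% of all genes, the YY1 motif in 10 (16.1%) against 3.19%, and the nuclear receptor motif in 8 (12.9%) against 5.38%. At least 1 of the first 3 motifs was in 67.7% of the members and in 19.5% of all genes. These are counts of letters and say nothing of binding. By complex, the NRF1 core was in 10 of 32 windows of complex I, 2 of 3 of complex II, 3 of 5 of complex III, 1 of 8 of complex IV and 9 of 14 of complex V. It was in 20 of the 51 members with a fold above 0 in endothelium against clusters and in 4 of the 10 with a fold below 0 (Ndufs5, which has a window, was not tested).

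The counts on genes summed to between 8933236 and 13428214 per library. Kitl, the check of the labels, had at least 923 counts in both libraries of wild type endothelium and at most 6 in every library of Sl/Sl. Wild type clusters had 110 counts of it in replicate 1 and 0 in replicate 2, so there the check says nothing of replicate 2. The 10 hematopoietic markers summed to 1153 to 1950 CPM (counts relative to the total of the library) in clusters and 189.8 to 246.7 in endothelium, and the 10 endothelial markers to 429 to 2800 and 5948 to 6747. Markers of other cells varied among the clusters: 8 macrophage markers summed to 243.5 to 712.3 CPM in clusters and 5.25 to 19.2 in endothelium. Sl/Sl clusters replicates 1 and 2 had 349 and 906.5 CPM of 12 striated muscle markers against 21.6 and 22.1 in wild type clusters and 53.7 to 88.6 in endothelium. Sl/Sl clusters replicate 2 also had 4499 CPM of 8 mesenchymal markers, where the other 7 libraries had 33.5 to 1420.0. The 8 erythroid markers summed to 14.9 to 259.6 CPM over the 8 libraries and the 8 germ cell markers to 7.06 to 107.3. The part of these cells in the results below was not tested. Values without a library, given in places, leave out all that differs in it and cannot test these cells. In libraries of sorted cells, a change in the RNA of a cell and a change in the mixture of cells cannot be told apart.

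The members were among the most abundant transcripts of both cell types. By RPKM, the count per kilobase of exon scaled to the size of the library (here to TMM-scaled totals), 66 of the 72 members that passed the filter on low counts were in the top 10% of the 13908 genes tested. The median RPKM over all 73 members was 492.9, where it was 7.30 over all genes tested. Complex IV had the highest median RPKM (830.5), followed by complex III (677.4), complex I (481.9), complex V (459.2) and complex II (318.2). In all 8 libraries complex IV had the highest median, complex III the next and complex II the lowest, while complex I lay above complex V in 7 of 8. Across libraries, complexes III and I did not overlap, while the other neighbours in this order did: the medians ran from 677.9 to 958.8 RPKM in complex IV, 613.7 to 772.4 in complex III, 406.1 to 551.1 in complex I, 365.7 to 502.3 in complex V and 241.0 to 406.1 in complex II.

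**Figure D1:**
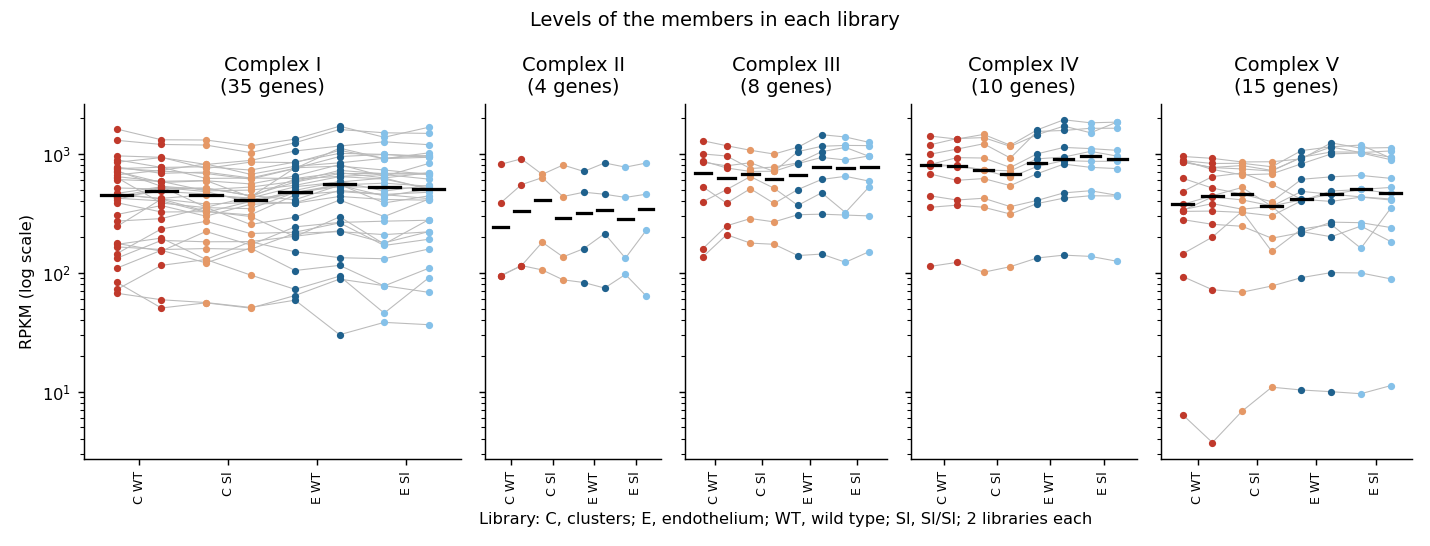
RPKM of each tested member (points, joined by gray lines) in the 8 libraries, on a log scale, by complex, with the median of the complex in each library as a black bar. The medians of complex IV run from 677.9 to 958.8 RPKM and those of complex II from 241.0 to 406.1, and Atp5g2 lies far below the other members of complex V.

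Within each complex the levels ran over a wide range. In complex I the highest was Ndufb8, an accessory subunit of the membrane arm, with a mean of 1440.0 RPKM over the 8 libraries, and the lowest with counts was Ndufs1, the largest core subunit of the arm that takes electrons from NADH, with 49.7. In complex II the iron-sulfur subunit Sdhb had 796.5 RPKM and the flavoprotein Sdha 89.95. In complex III Uqcr10, a small subunit, had 1221 RPKM and the core protein Uqcrc2 156.7, and in complex IV Cox6b1 had 1575 and Cox7c 123.2. In complex V the peripheral stalk subunit Atp5o (OSCP) had 998.2 RPKM and Atp5g2 8.63. Some of the low levels were in genes with copies elsewhere in the genome. In 8 members more than 50% of all 75-base windows of the exons, the length of a read, occur letter for letter at another place in the mm9 genome, and their median was 104.8 RPKM, against 501.7 in the 44 members with no such window. The 8 ran up to 392.9 RPKM, and Ndufs1, Sdha and Uqcrc2, also low, had no such window. The reads were paired, so the share of windows can overstate the share of read pairs that match several places. How reads that match several places were counted is not given in the sources used here.

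Atp5g1, Atp5g2 and Atp5g3 encode the same mature c subunit of the membrane ring, with different import sequences. By RPKM, Atp5g3 made up 64.5 to 72.8% of their sum in the 8 libraries, Atp5g1 26.0 to 34.6% and Atp5g2 0.48 to 1.81%. Every window of Atp5g2 and 68.1% of those of Atp5g1 occur elsewhere, so their shares are uncertain. Ndufs5, a complex I accessory subunit, had 0 counts in all 8 libraries, which allows up to 3 counts in each. In the exons listed, 484 of its 509 bases (95.1%) are shared with BC002163 on the opposite strand, which had 1973 to 2798 counts, and 76.1% of its windows occur elsewhere. Without the strand setting of the counting, reads from these genes cannot be told apart. Ndufs5 could not be measured from these counts and did not enter the tests.

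Replicates were closer for the members than over all genes tested. The members are far more abundant, with a median of 492.9 RPKM against 7.30, and no comparison at a matched level was made. The median difference between the 2 libraries of a group was 0.128 to 0.200 on the log2 scale over the 72 members and 0.629 to 0.659 over all genes tested, and the median biological coefficient of variation was 0.233 and 0.603. The widest member of each group was Atp5d, the delta subunit of the central stalk, with 1.12 in Sl/Sl clusters and 1.11 in Sl/Sl endothelium, Ndufs1 with 0.965 in wild type endothelium and Ndufa9 with 0.764 in wild type clusters, among the differences of log2 CPM.

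The first comparison asked how the cell types differ, over both genotypes. Most subunit genes had a somewhat higher level in endothelium than in clusters, with medians between 0.23 and 0.32 on the log2 scale in complexes I, III, IV and V, while the 2 subunits of the catalytic F1 head of the ATP synthase, Atp5a1 and Atp5b, were lower. Of the 72 members, 58 had a fold above 0, with a median log2 fold change of 0.28, where 47.3% of all genes tested were above 0 and the median of all was -0.07. By the quasi-likelihood test of edgeR, with p-values adjusted over 13908 genes, 8 members were called higher in endothelium at an adjusted p under 0.1 (all genes: 8.48%) and 2 were called lower (all genes: 8.12%). DESeq2 called 12 higher (all genes: 12.1%) and 2 lower (all genes: 13.4%), among them all 8 and 2 of the edgeR calls. As shares of the 72, the calls were near the background for higher genes and below it for lower genes. More members stood clear of overlap: in 24 (33.3%) every endothelium library was above every cluster library (all genes: 10.1%), and in 2 (2.78%) every one was below (all genes: 9.57%). No share over genes of like level or replicate spread is given.

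The summed CPM of the 73 members was 28820.0, 29890.0, 29550.0 and 26550.0 in the clusters (wild type 1 and 2, then Sl/Sl 1 and 2) and 29980.0, 34430.0, 32310.0 and 33400.0 in the endothelium in the same order. Every endothelium library was higher, though the first by little, and the ratio of the means was 1.13. By complex the ratio was 1.16 for complex I, 0.964 for complex II, 1.09 for complex III, 1.28 for complex IV and 1.05 for complex V. Complex IV stood clear of overlap, with 4094 to 4841 CPM in clusters and 5359 to 6079 in endothelium.

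The size of the shift rests on the scaling. The TMM factors were 1.02 to 1.08 in clusters and 0.940 to 0.981 in endothelium, and with plain totals in their place the median of all genes moved from -0.07 to -0.20, that of the members from 0.28 to 0.15, and the members above 0 from 58 to 52. The members called higher went from 8 to 2 (Uqcrh and Cox6a1), and those that stood clear of overlap to 11 higher (all genes: 8.12%) and 5 lower (all genes: 11.8%), while the members called lower were again Atp5a1 and Atp5b. The shares of all genes called with plain totals are not given here, so the counts of calls show only how far the calls moved. The ratio of the summed CPM became 1.03 over all members, 1.06 in complex I, 0.882 in complex II, 0.999 in complex III, 1.17 in complex IV and 0.962 in complex V, so that complexes III and V turned from above 1 to below it. Relative to the median of all genes the members were 0.35 higher with TMM and 0.34 with plain totals.

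**Figure D2:**
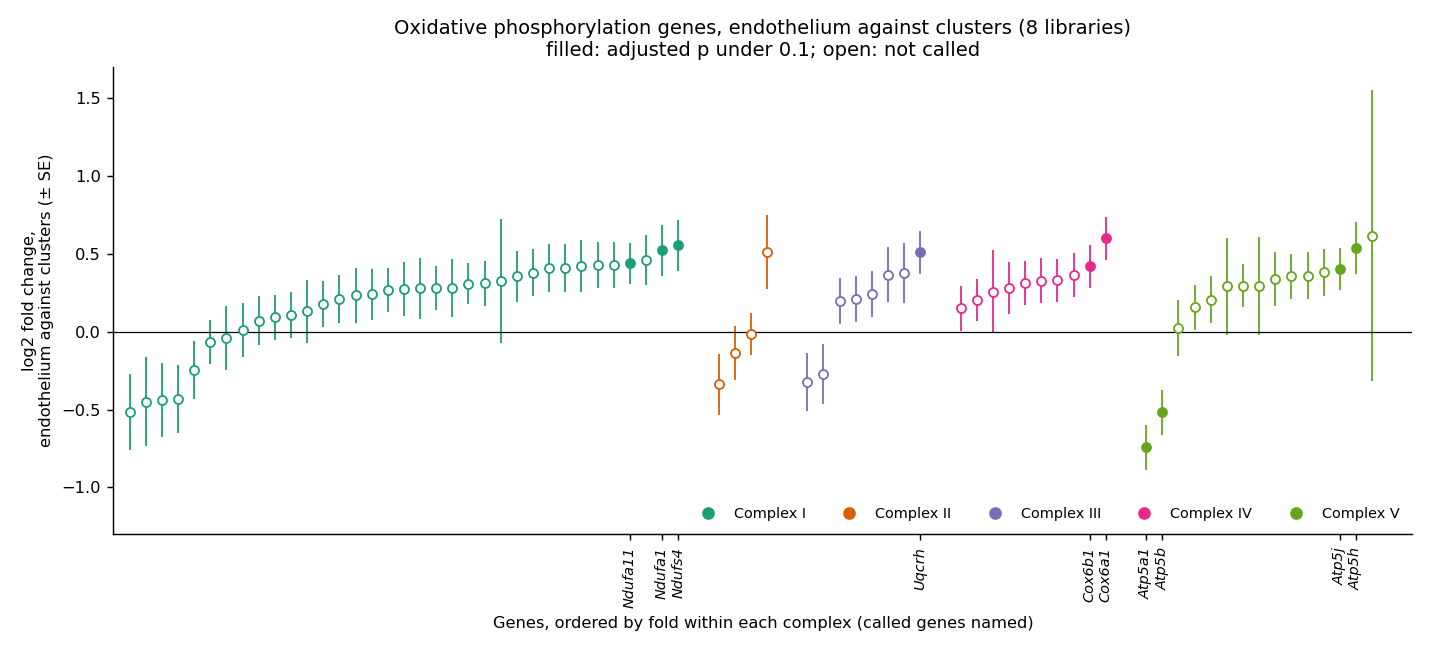
Log2 fold change ± SE of each tested member in endothelium against clusters over both genotypes (edgeR, 8 libraries), ordered within each complex, with filled points and names for those with an adjusted p under 0.1. Of the 72 members, 58 lie above 0; Atp5a1 and Atp5b are the 2 filled points below it.

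Atp5a1, the alpha subunit of the F1 head, had 827, 928, 834 and 881 CPM in the clusters (wild type 1 and 2, then Sl/Sl 1 and 2) and 539.9, 489, 601.3 and 446 CPM in the endothelium in the same order. All 4 endothelium libraries were below all 4 cluster libraries, and the log2 fold change was -0.74 ± 0.15 (SE; 95% limits -1.07 and -0.41; edgeR adjusted p = 0.0134), or 1.67-fold lower. Atp5b, the beta subunit, which carries the catalytic sites, had 907, 1211, 1299 and 1045 CPM in the clusters and 779.8, 749, 814 and 770.0 in the endothelium. It too did not overlap, with a log2 fold change of -0.52 ± 0.14 (adjusted p = 0.0497), or 1.43-fold lower. Within wild type Atp5a1 was the only member that edgeR called (log2 fold change -0.77, adjusted p = 0.0731, all genes called lower: 3.68%), a call lost without any 1 of those 4 libraries (largest adjusted p = 0.26), and within Sl/Sl its log2 fold change was -0.71 (adjusted p = 0.152). Atp5b was at -0.47 and -0.57 in the 2 genotypes, with adjusted p = 0.24 and 0.245. Atp5a1 kept its call under all 16 alternatives to the fit, and Atp5b under 11, the call being lost without wild type clusters replicate 2, Sl/Sl clusters replicate 1, wild type endothelium replicate 2 or Sl/Sl endothelium replicate 2 (smallest size -0.43, largest adjusted p = 0.145), and with the trend over exon length taken out (-0.26, adjusted p = 0.215).

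The rest of complex V lay on the other side of 0. The 3 genes of the central stalk, the 4 of the peripheral stalk, the 3 of the c ring and the 3 small membrane subunits all had folds above 0 with TMM scaling, of which Atp5g1 (0.02) went below 0 with RLE factors or plain totals. Atp5h, the d subunit of the peripheral stalk, had 188.5, 189.8, 185 and 173 CPM in clusters and 232, 279.7, 288 and 268 in endothelium, without overlap (log2 fold change 0.53 ± 0.17, adjusted p = 0.0779). Atp5j, the F6 subunit of the same stalk, had 645, 583, 606 and 551 CPM in clusters and 706, 868, 778 and 804 in endothelium, also without overlap (0.40 ± 0.14, adjusted p = 0.0932). Both calls were lost with any 1 library left out (largest adjusted p = 0.25 and 0.316) and with plain totals. Atp5h has 54.6% of its windows elsewhere in the genome, and 16.2% of the exon bases of Atp5j are shared with Gabpa. The ratio of the mean RPKM of the 2 head genes to that of the 4 peripheral stalk genes, which no scaling of the library can change, was 0.667, 0.837, 0.866 and 0.815 in the clusters and 0.48, 0.36, 0.442 and 0.386 in the endothelium. The ratio did not overlap between the cell types. It was formed after the values were seen and is given without a test. Unlike a scaling, a trend over exon length can change it: the head genes have 2431 and 1879 exon bases and the stalk genes 574 to 1456. With that trend taken out, the log2 fold changes of Atp5a1 and Atp5b were -0.47 and -0.26, and those of Atp5h and Atp5j 0.51 and 0.41.

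All 10 complex IV genes had folds above 0 with TMM scaling, RLE factors and plain totals alike. Their median was 0.32 (0.19 with plain totals), and with TMM scaling 8 of them were higher without overlap (all genes: 10.1%). Cox6a1, the widely expressed form of subunit 6A, had 530.4, 585, 649 and 492 CPM in the clusters and 825, 840.3, 876 and 877 in the endothelium. Every endothelium library was higher, by a log2 fold change of 0.60 ± 0.14 (adjusted p = 0.0264), or 1.51-fold. Its call held with each library left out in turn and in 15 of the 16 alternatives, and was lost with the trends over length and level taken out (0.31, adjusted p = 0.147). Cox6b1, which helps to hold the complex IV dimer together, had 714, 674, 737 and 597 CPM in clusters and 804, 979, 923 and 936 in endothelium (0.42 ± 0.14, adjusted p = 0.0873). Cox6b1 kept its call in 5 of 16 alternatives. Of the libraries left out in turn, these were Sl/Sl clusters replicate 1 and wild type endothelium replicate 1, and with plain totals the call was lost. The other 8 genes had log2 fold changes between 0.15 (Cox7b) and 0.36 (Cox4i1) and were not called.

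In complex I, 28 of 35 tested genes had folds above 0, with a median of 0.27, and 10 were higher without overlap (all genes: 10.1%). The accessory subunits and the core subunits, which carry the electrons, differed in their medians, at 0.29 over 28 genes and 0.01 over 7 (0.16 and -0.12 with plain totals); the difference was not tested. The 3 genes called higher were all accessory. Ndufs4, a subunit needed for the assembly of the NADH-binding arm, had 271, 234, 342 and 263 CPM in clusters and 373, 407, 417 and 425 in endothelium (0.55 ± 0.16, adjusted p = 0.0594). Ndufa1, a small membrane subunit, was at 0.52 ± 0.17 (adjusted p = 0.0801) and Ndufa11 at 0.44 ± 0.13 (adjusted p = 0.0665), both without overlap. Ndufa1 and Ndufa11 lost their calls with any 1 library left out, Ndufs4 with any of 6, and all 3 with plain totals, where their log2 fold changes were 0.39, 0.31 and 0.42. The core subunits Ndufs1 and Ndufv1 stood at -0.51 ± 0.25 and -0.45 ± 0.28 and were not called (adjusted p = 0.218 and 0.356).

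Complex II, which is shared with the citric acid cycle, did not follow the others. Its 4 genes had a median log2 fold change of -0.08 and none was called. Sdha, the flavoprotein that oxidizes succinate, was at -0.34 ± 0.20 (adjusted p = 0.316), and Sdhc, a membrane anchor, at 0.51 ± 0.24 (adjusted p = 0.208). In complex III, Uqcrh, the hinge subunit beside cytochrome c1, was called higher: it had 464.5, 434, 460.2 and 389 CPM in clusters and 571, 633.5, 644 and 641.5 in endothelium (0.51 ± 0.14, adjusted p = 0.0467). Uqcrh kept its call with plain totals (0.38, adjusted p = 0.0953) and lost it without any of 5 libraries (wild type clusters replicate 2, Sl/Sl clusters replicate 2, wild type endothelium replicate 2 and both of Sl/Sl endothelium) and with the trends over length and level taken out (0.26, adjusted p = 0.184). Uqcrfs1, the Rieske iron-sulfur protein, was at 0.37 ± 0.18 and did not overlap but was not called (adjusted p = 0.222), and the core proteins Uqcrc1 and Uqcrc2 were at -0.27 and -0.32.

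**Figure D3:**
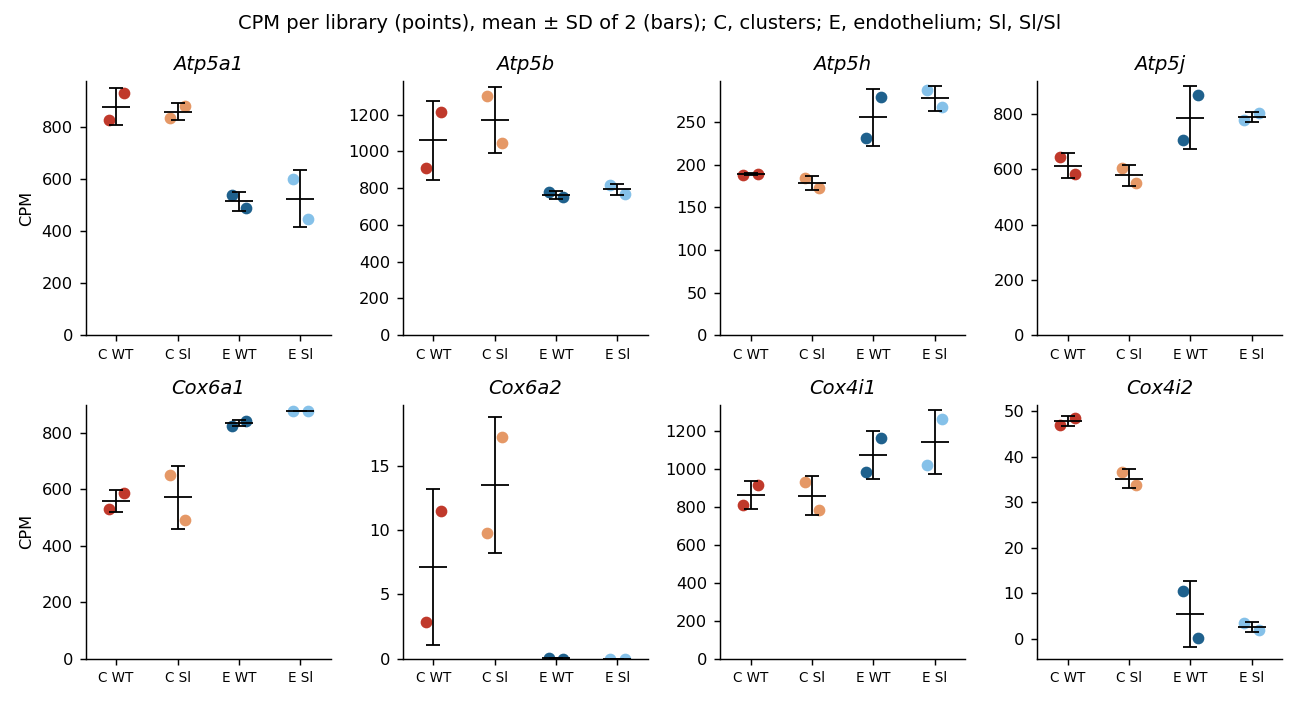
CPM in each library (points) with the mean ± SD of the 2 libraries of a group (bars) for Atp5a1, Atp5b, Atp5h, Atp5j, Cox6a1 and Cox4i1 and for the isoform genes Cox6a2 and Cox4i2. Atp5a1 and Atp5b are lower in all 4 endothelium libraries, Atp5h, Atp5j, Cox6a1 and Cox4i1 are higher in all 4, and Cox6a2 is at or near 0 there; the SD bar of Cox4i2 in wild type endothelium runs below 0 because its libraries had 10.6 and 0.303 CPM.

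The fold went with the length of the gene. The members have a median exon length of 679 bases, against 2214 over the whole table, and run from 292 to 2927. The 29 tested members of at most 600 bases had a median log2 fold change of 0.33, the 8 of over 1600 and up to 2500 bases -0.38 and the 3 of over 2500 and up to 4000 bases -0.34. Over the 72 members the fold and the log2 exon length had a Pearson correlation of -0.61 (Spearman -0.42), given as a description of genes that share the same 8 libraries. Other abundant genes moved with length in the same direction, though less: among the 1390 tested genes with a mean log2 CPM over 7.5, of which 65 are members, the median fell from 0.27 at up to 600 bases to 0.01 at over 1600 and up to 2500 bases, and was 0.15 over all of them. With each library's trend over exon length taken out, an alternative added after the data were seen, 14 members were called higher and 1 lower. The median of the members was then 0.28 against 0.02 over all genes. With the trend over length and level taken out together, 1 was called higher (Atp5h) and 4 lower (Atp5a1, Atp5b, Ndufa9 and Uqcrc1), and the median of the members was 0.06 against -0.03 over all genes. The shares of all genes called with these trends taken out are not given here. Length, level and subunit role go together in these genes and cannot be told apart here.

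**Figure D4:**
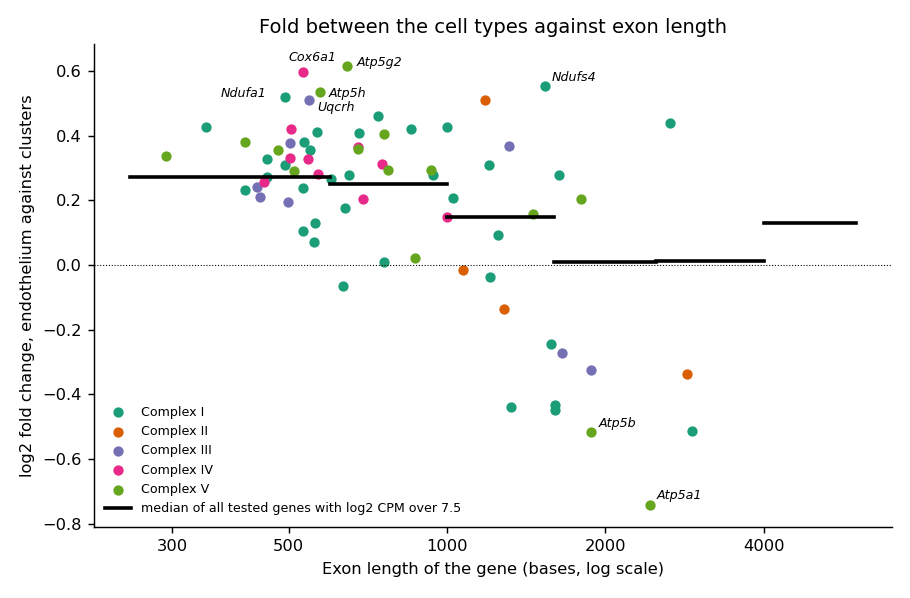
Log2 fold change of the 72 tested members in endothelium against clusters against their exon length in bases on a log scale, colored by complex, with black bars for the median of all tested genes of that length with a log2 CPM over 7.5. The members of up to 600 bases have a median of 0.33 beside 0.27 for all such genes, and those of over 1600 and up to 2500 bases -0.38 beside 0.01.

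Within each genotype the direction was the same with few calls. In wild type 55 of 72 members were above 0 (all genes: 49.4%) and 17 below (all genes: 50.2%), with a median of 0.19. There edgeR called 0 higher (all genes: 4.56%), 5 higher and 2 lower had an unadjusted p under 0.05 (all genes: 10.3% and 9.14%), and DESeq2 called 1 higher and 1 lower (all genes: 10.1% and 9.76%). Without overlap, 31 were higher (all genes: 25.1%) and 6 lower (all genes: 25.5%). In Sl/Sl 59 were above 0 (all genes: 47%), with a median of 0.35 and 0 called in either direction by edgeR (all genes: 0.985% higher, 1.84% lower), where 14 higher and 2 lower had an unadjusted p under 0.05 (all genes: 6.53% and 7.83%) and DESeq2 called 3 higher (all genes: 4.99%) and 1 lower (all genes: 7.69%). There 51 were higher without overlap (all genes: 22%) and 8 lower (all genes: 24.4%). The difference between the genotypes in this respect is the interaction given below.

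The second question was whether the lack of Kitl goes with a change in these genes. In clusters, edgeR called 0 members (all genes: 0%), 0 had an unadjusted p under 0.05 (all genes: 3.41% higher, 0.812% lower), and DESeq2 called 0 (all genes: 1.27% higher, 0.0855% lower). Of the 72 members 52 had a fold below 0 in Sl/Sl, with a median log2 fold change of -0.12, where 47.5% of all genes were below 0 and the median was 0.03. Marker levels differed between the same libraries: the summed hematopoietic markers had 1500.0 and 1950.0 CPM without the deletion against 1153 and 1327 with it. The summed endothelial markers had 1202 and 429 CPM against 2800.0 and 763, with 9 of 10 genes above 0 and a median log2 fold change of 1.00. By edgeR no gene was called, but 5 of these 10 markers had an unadjusted p under 0.05 (all genes: 3.41% higher, 0.812% lower). In these cells the paper reports endothelial-associated genes as raised and hematopoietic genes as lowered in the mutant. The part of the markers in the shift of the members was not tested. In 25 members both Sl/Sl libraries were below both wild type libraries (all genes: 16.3%) and in 4 both were above (all genes: 16.4%). Of the 25, 12 were in complex I, 6 in complex V, 3 each in complexes III and IV and 1 in complex II. The 28 tested accessory subunits of complex I had a median of -0.17 and the 7 core subunits 0.10.

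The smallest p-values in clusters were those of Atp5g3 and Ndufa12. Atp5g3, the main gene of the c subunit, had 424 and 350.5 CPM in the wild type and 312 and 269 in the mutant clusters, without overlap (log2 fold change -0.41 ± 0.21, edgeR unadjusted p = 0.0842, adjusted p = 1). Ndufa12 had 355 and 217 CPM without the deletion and 198 and 194 with it (-0.54 ± 0.28, adjusted p = 1), but ran from -0.86 to -0.14 with a library left out, and 47.2% of its windows occur elsewhere in the genome. Sdhc (0.60 ± 0.34) and Uqcrfs1 (0.44 ± 0.25) stood on the other side, with higher values in both Sl/Sl libraries; with a library left out they ran from 0.38 to 0.79 and from 0.16 to 0.79. The next by complex were Ndufb10 (-0.29), Sdhb (-0.22), Uqcrq (-0.36), Cox5a (-0.21), Cox6c (-0.15) and Atp5k (-0.27). The largest size was that of Atp5g2 (0.81), which had 2.41 to 7.05 CPM in the clusters. The small shift of the members was lost without Sl/Sl clusters replicate 2. Their median was then -0.04 and that of all genes -0.04, with 44 of 72 members below 0. The share of all genes below 0 in that fit is not given here. That library had the most mesenchymal and muscle RNA, and the part of such cells in the shift was not tested. The median of the members less that of all genes was -0.15 with all libraries. It was -0.18 and -0.25 without wild type clusters replicates 1 and 2, and -0.17 without Sl/Sl clusters replicate 1. With the trends over length and level taken out, the medians of the members and of all genes were -0.07 and -0.08. The 29 members of at most 600 bases had a median of -0.148, beside -0.135 over all 370 tested genes of that length.

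In endothelium the median of the members lay near that of all genes. There edgeR called 0 (all genes: 0%), 0 had an unadjusted p under 0.05 (all genes: 1.83% higher, 2.34% lower), and DESeq2 called 0 (all genes: 0.637% higher, 0.713% lower). The median log2 fold change was 0.03, with 47 of 72 members above 0 (all genes: 48%) and 25 below (all genes: 50.1%), and 9 higher and 4 lower without overlap (all genes: 13.5% and 14.9%). The largest size was that of Ndufa10, an accessory subunit, with 266 and 318 CPM without the deletion and 205 and 231.5 with it (-0.42 ± 0.29, adjusted p = 1). Ndufa12 followed with -0.31 ± 0.28, and the 2 genes of each other complex with the smallest p-values, Sdhb, Sdhd, Uqcrb, Uqcrq, Cox5b, Cox6c, Atp5c1 and Atp5h, lay between -0.07 and 0.16. The 95% limits of the log2 fold change lay within -1 and 1 for 65 of 72 members in endothelium and for 62 in clusters, so that for these a change of 2-fold or more was outside the limits. Smaller changes lie inside these limits and could not be detected with 2 libraries a group.

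The last comparison asked whether the genotypes differ in another way in clusters than in endothelium. For the interaction, the log2 fold change in clusters minus that in endothelium, edgeR called 0 members (all genes: 0%), 0 had an unadjusted p under 0.05 (all genes: 3.67% higher, 1.62% lower), and DESeq2 called 0 (all genes: 0.969% higher, 0.326% lower). The median of the members was -0.15 and 53 of 72 were below 0 (all genes: 46.3%), where the median of all genes was 0.10. Of the 2 members of each complex with the smallest p-values, those of complex I were Ndufa10, at 0.77 ± 0.41 (adjusted p = 0.913), and Ndufa1 (-0.36). Those of the other complexes were Sdhc (0.65) and Sdhb (-0.28), Uqcrq (-0.50) and Uqcrfs1 (0.47), Cox5a (-0.27) and Cox6c (-0.27), and Atp5g3 (-0.45) and Atp5k (-0.34). Atp5g2, with few counts, was at 0.77 ± 1.86. The median of the members less that of all genes was -0.25, and became -0.07 without Sl/Sl clusters replicate 2, -0.04 without wild type endothelium replicate 1 and -0.04 with the trends over length and level taken out. It was -0.31 and -0.40 without wild type clusters replicates 1 and 2, and -0.36 and -0.38 without Sl/Sl endothelium replicates 1 and 2. Without Sl/Sl clusters replicate 1 it was -0.23, and without wild type endothelium replicate 2 it was -0.29.

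**Figure D5:**
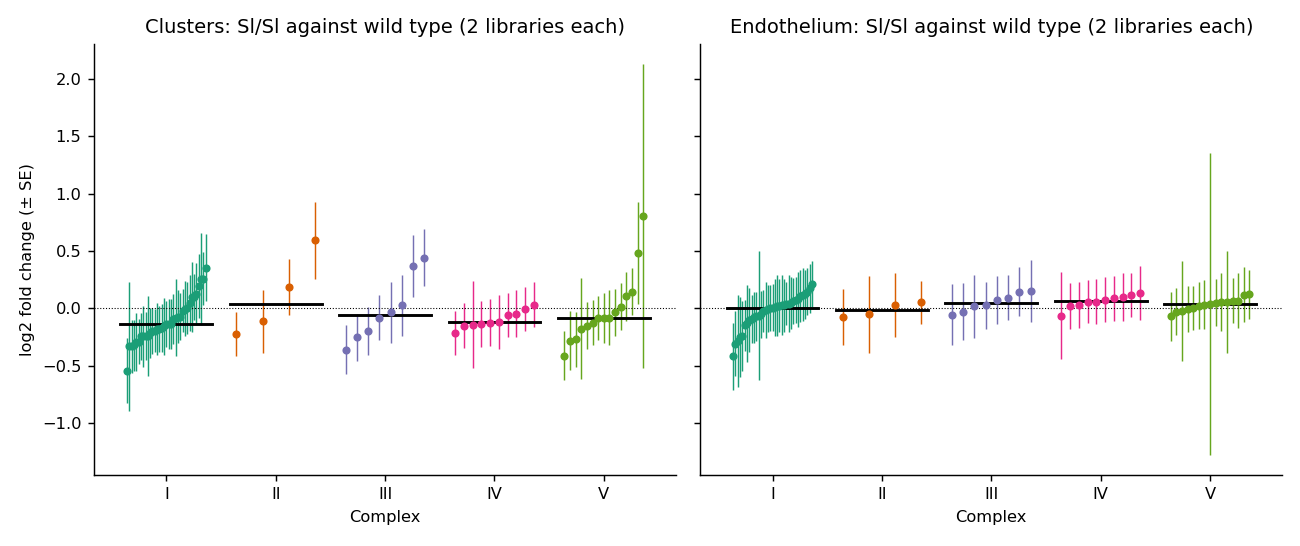
Log2 fold change ± SE of each tested member in Sl/Sl against wild type (edgeR, 2 libraries a group), in clusters on the left and in endothelium on the right, by complex, with the median of the complex as a black bar. None of the 72 members was called in either cell type; in clusters 52 lie below 0 and in endothelium 47 lie above it, and the long bars are those of Atp5g2.

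Of the subunit isoforms outside the rule, Cox6a2 and Cox4i2 were called lower in endothelium. Cox6a2, the form of subunit 6A known from heart and skeletal muscle, had 33, 147, 119 and 247 counts in the clusters and 1, 0, 0 and 0 in the endothelium. Its rate was 453 times higher in clusters (95% exact limits from counting error 81 and 17900; edgeR adjusted p = 0.0154). It made up 0.432 to 2.75% of the summed RPKM of Cox6a1 and Cox6a2 in clusters and at most 0.00779% in endothelium. Cox4i2, the form of subunit 4 known from lung and from low oxygen, had 546, 624, 446 and 484 counts in clusters and 133, 3, 39 and 16 in endothelium (log2 fold change -3.42 ± 0.88, adjusted p = 0.0394). It made up 3.54 to 5.14% of the summed RPKM of Cox4i1 and Cox4i2 in clusters and 0.0243 to 0.992% in endothelium. Both calls held with each library left out in turn. Cox7a1, another muscle form, had 150, 119, 90 and 130 counts against 25, 76, 36 and 20 and was not called (-1.39 ± 0.92, adjusted p = 0.378), and Cox8b had 29 counts in Sl/Sl clusters replicate 2 and at most 1 elsewhere. The wild type clusters, with 33 and 147 counts of Cox6a2, had 21.6 and 22.1 CPM of striated muscle markers. The Sl/Sl clusters, with 119 and 247 counts, had 349 and 906.5 CPM of these markers, and the endothelium had 53.7 to 88.6. The part of muscle cells in the counts of Cox6a2 was not tested.

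In the list of 17 other subunits and isoforms 15 were tested, of which 9 were below 0 (all genes: 52.7%), 1 was called higher (all genes: 8.48%) and 2 were called lower (all genes: 8.12%). The gene called higher, 2010107E04Rik, encodes a small proteolipid of the ATP synthase (0.48 ± 0.15, adjusted p = 0.0722). Atpif1, the inhibitor of the ATP synthase, was at 0.13 and Cycs, the cytochrome c of body cells, at -0.26, and neither was called. Of 42 tested assembly factors 24 were below 0 (all genes: 52.7%), 0 were called higher (all genes: 8.48%) and 1 was called lower (all genes: 8.12%), Ndufaf1, a factor of complex I (-0.74 ± 0.25, adjusted p = 0.0978). Of the 16 enzymes of the citric acid cycle and its entry 14 were below 0 (all genes: 52.7%), with a median of -0.34, and 1 was called lower (all genes: 8.12%): Mdh2, the mitochondrial malate dehydrogenase, had 873, 1250.0, 1003 and 1021 CPM in clusters and 686, 762, 565 and 800.5 in endothelium (-0.56 ± 0.17, adjusted p = 0.065). The calls of 2010107E04Rik, Ndufaf1 and Mdh2 were lost with 7, 8 and 6 of the 8 libraries left out in turn.

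The regulators of mitochondrial biogenesis showed no calls (all genes: 8.48% higher, 8.12% lower). Of 15 tested, 12 were below 0 (all genes: 52.7%) and 0 had an unadjusted p under 0.05 (all genes: 12.9% higher, 13.7% lower). Nrf1 and Gabpa, whose motifs were counted in the promoters, were at -0.43 ± 0.60 and -0.07 ± 0.28, and Tfam, which packs and transcribes mitochondrial DNA, at -0.31 ± 0.25. Esrra, a nuclear receptor that binds AAGGTCA, had 25 to 96 counts and was at 0.31 ± 1.08. Ppargc1a and Ppargc1b, coactivators of these factors, had 0 to 96 counts, with 10 counts or fewer in 5 and 6 of the 8 libraries, and their direction could not be told. In genotype comparisons edgeR called 0 genes of any of these lists (all genes: 0%).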

How the data were processed

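Single libraries of 100 sorted cells, 8 in 4 groups, had been made by SMART-seq2, a full-length protocol without strand or molecular tags. They were read from both ends over 75 bases. The authors deposited raw counts of reads per gene; their processing notes name STAR 2.4.2a, featureCounts of Subread 1.4.5, DESeq2 1.12.4 and build mm9. The annotation, the strand setting and the handling of reads with several matches are not given in the sources used here. Gene totals of 8933236 to 13428214 counts set the precision, and intervals from counts cover counting error only, since PCR copies are not separate molecules. In 27 rows the gene name had been turned into a date, and none is a member.

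The counts were fitted with edgeR 4.0.16 (limma 3.58.1, R 4.3.3) on all 8 libraries, with filterByExpr, TMM factors and the quasi-likelihood test, over 13908 genes, with Benjamini-Hochberg adjustment over all of them and a threshold of 0.1. The SE was taken from the fold and the F statistic, and 95% limits with a t quantile of 2.253. CPM and RPKM used TMM-scaled totals and the exon length in the table. Tables were made in Python 3.11.15, and the fit was tested on simulated data. The text names every called member, the 2 members of each complex with the smallest p-value in a comparison, those with the highest and lowest mean RPKM in each complex, the 3 c subunit genes, at most 5 called genes of each other list, 12 regulators and isoforms, and Kitl; any other gene was named after its values were seen. The values of 1 member are not reported here. The members, the lists of markers, other subunits, assembly factors, citric acid cycle enzymes and regulators, and the tests were chosen with earlier results of these data known. Alternatives were DESeq2 1.42.0, RLE factors, no filter, at least 10 counts in every library, a replicate block, only the libraries compared, a threshold of 0.05, and each library left out in turn. Removal of trends over length and level, plain totals for the fits, and members without shared sequence were added after the data were seen.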

Additional observations from a re-analysis of the deposited data

How the results depend on the processing

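With 2 libraries a group, single calls were fragile. Apart from DESeq2, the shares of all genes called under these alternatives are not given here. The counts of members called show only how far the calls moved. In endothelium against clusters over both genotypes, the 8 members called higher became 3 without a filter, 3 with at least 10 counts in every library, 2 with plain totals, 2 at a threshold of 0.05, 14 with the length trend removed, 1 with length and level trends removed, and 1 to 5 with a library left out (1 without replicate 2 of any group or replicate 1 of Sl/Sl endothelium, 3 without wild type clusters replicate 1, 5 without Sl/Sl clusters replicate 1, 4 without wild type endothelium replicate 1). The 2 called lower became 1 and 4 with the length trend and with both trends removed, and 1 to 3 with a library left out. The median became 0.15 with plain totals and 0.0615 with both trends removed (0.21 to 0.33 with a library left out). In wild type, DESeq2 and the length trend each gave 1 called higher; the 1 called lower became 0 with the length trend removed, 2 with both, 0 at 0.05 and 0 with any library left out; the median became 0.0560 with plain totals and 0.0517 with both trends removed (0.0612 to 0.28 with a library left out). In Sl/Sl, DESeq2 called 3 higher and 1 lower, plain totals and both trends removed 1 lower each, and the median became 0.22 and 0.0629 (0.29 to 0.40 with a library left out). For the genotype, the median ran from -0.17 to -0.04 in clusters, from -0.0663 to 0.16 in endothelium and from -0.25 to -0.0554 in the interaction with a library left out, with 0 calls throughout. In endothelium the genotype folds of Atp5h, Sdhb and Uqcrq turned to -0.00625, -0.0572 and -0.000232 without wild type replicate 1, and that of Sdhb was also below 0 without Sl/Sl replicate 2; left out in turn, they reached up to 0.278, 0.195 and 0.328. With plain totals the ratio of summed CPM became 1.03 for the members and 0.962 for complex V, and means in place of medians gave 381 RPKM for complex II and 518 for complex V. The causes were not tested.

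No clear pairing by replicate number was seen: deviations of same-numbered libraries correlated by -0.11 to 0.16. With 2 libraries a group, such weak correlations cannot tell whether same-numbered libraries shared a sort. With the replicate number as a block, 4 members were called higher and 2 lower over both genotypes, with a median of 0.27.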
